A study of Mus musculus with 3 samples.

Results

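The genes described here move zinc, copper and iron across membranes, bind these metals or sense them. They were taken as the probe sets whose single annotated gene is a member of the Slc30 or Slc39 family of zinc transporters, one of the metallothionein genes Mt1 to Mt4, or one of Slc11a1, Slc11a2, Slc31a1, Slc31a2, Slc40a1, Tfrc, Fth1, Ftl1 and Mtf1. The rule used names and no measured value. It found 68 of the 45101 probe sets of the array, for 36 of 18194 genes. Ftl1, the ferritin light chain gene, was the one name without such a probe set, since the 3 probe sets that carry its name are annotated to further genes as well, and no value is given for it.

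Expression was measured in glomeruli isolated from 3 nondiabetic male FVB/NJ mice, killed at 8 weeks of age, with 1 Affymetrix array per mouse. The labels name no treatment, and all mice ate the same rodent diet. The series was designed around diabetic OVE26 mice with FVB as the control, and OVE26 arrays were not analysed here. The data therefore give levels in control glomeruli and the spread between mice, without a comparison of groups. The replicate numbers in the titles name the mice (mouse 1, mouse 2 and mouse 3). RNA came from the pooled glomeruli of each animal, so a value averages over podocytes, endothelium, mesangium and any attached tubule or leukocytes. In such bulk samples fewer cells of a type and less RNA per cell cannot be told apart.

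Cells keep free zinc, copper and iron low because these metals are needed by many proteins and harm the cell when unbound. The Slc39 proteins bring zinc into the cytosol, from outside or from organelles, and the Slc30 proteins carry it out of the cytosol. Metallothioneins are small cysteine-rich proteins that bind zinc and copper. When zinc rises, the transcription factor encoded by Mtf1 binds metal response elements in DNA and raises transcription of the metallothionein genes and of the zinc exporter gene Slc30a1. Iron enters most cells as transferrin taken up by the receptor encoded by Tfrc, is stored in ferritin, and leaves through ferroportin, encoded by Slc40a1. In the kidney, filtered metals are recovered mainly by the tubule.

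The promoter windows of the genes through which Mtf1 is best known to act are shown because Mt1 and Mt2 were both highest in mouse 2, while both probe sets of Slc30a1 were lowest there. Each window, from RefSeq (GRCm38.p6), runs from 250 bases before the annotated transcription start to 30 bases after it, 5′ to 3′ on the strand of the gene. Capitals mark every match to the core of the metal response element, TGCACNC or TGCGCNC, searched on both strands, with overlapping matches counted separately. Mt1 lies at chr8:94178839-94179118, Mt2 at chr8:94172368-94172647 and Slc30a1 at chr1:191906531-191906810, all on the plus strand.
Mt1: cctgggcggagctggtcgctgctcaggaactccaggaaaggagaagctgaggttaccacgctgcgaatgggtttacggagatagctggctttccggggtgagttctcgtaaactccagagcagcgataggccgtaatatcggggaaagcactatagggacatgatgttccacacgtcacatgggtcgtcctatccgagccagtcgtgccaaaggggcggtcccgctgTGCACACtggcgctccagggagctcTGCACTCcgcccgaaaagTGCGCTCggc
Mt2: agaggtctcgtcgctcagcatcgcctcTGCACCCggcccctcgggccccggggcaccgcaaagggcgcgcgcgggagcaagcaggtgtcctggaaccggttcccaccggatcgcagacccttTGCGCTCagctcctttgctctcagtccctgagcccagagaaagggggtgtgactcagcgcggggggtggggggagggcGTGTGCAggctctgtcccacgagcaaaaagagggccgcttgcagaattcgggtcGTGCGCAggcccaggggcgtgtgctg
Slc30a1: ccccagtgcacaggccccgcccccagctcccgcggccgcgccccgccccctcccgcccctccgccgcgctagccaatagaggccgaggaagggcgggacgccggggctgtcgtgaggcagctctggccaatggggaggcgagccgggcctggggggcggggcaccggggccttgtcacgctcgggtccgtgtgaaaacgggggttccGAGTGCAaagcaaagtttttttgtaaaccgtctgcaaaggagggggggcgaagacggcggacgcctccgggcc
The Mt1 window held 3 matches and the Mt2 window 4, and the Slc30a1 window held 1. Of all 32851 windows of this length in the table, 24.1% held at least 1 match, 1.73% at least 3 and 0.405% at least 4. In Mt2, TGCACCC began 223 bases and TGCGCTC 128 bases before the annotated start, and the reverse-strand match GTGTGCA began 50 bases before it. In Mt1 the matches lay around the annotated start, with TGCACAC beginning 23 bases before it. The match GAGTGCA of Slc30a1 began 43 bases before the start. Windows were listed for 30 of the 36 genes, and 16 of these held a match in at least 1 window. Some genes have several windows (37 for the 30 genes), so this count of genes cannot be set beside the 24.1% of windows. Slc30a4 and Slc30a10 also held 3 matches each. A match describes the letters and does not show binding. The counts hold for these windows only, since sequence outside them was not searched. Whether the annotated starts are the ones used in glomeruli was not tested. In the same gene table Mt4, Mt3, Mt2 and Mt1 follow each other in this order on chromosome 8, with the gene model Gm39227 between Mt3 and Mt2.

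Values are log2 expression, read from the deposited GCRMA table. A gene with several probe sets is represented by the one with the highest mean. Probe sets of olfactory and vomeronasal receptors (80 of them) served as the floor, and their 95th percentile on each array, the background, was 2.58 in mouse 1, 2.91 in mouse 2 and 2.86 in mouse 3. By this measure 26 of the 36 genes were above background in all 3 mice, against 10610 of 18194 genes overall. Of the rest, 2 (Mt3 and Slc30a2) were above it in some mice and 8 in none. At the level of probe sets, 37 of the 68 were above background on all arrays, 6 on some and 25 on none. The 8 genes below background in every mouse were Mt4, Slc30a3, Slc30a8, Slc30a10, Slc39a2, Slc39a4, Slc39a5 and Slc39a12. Several of them are known for work in other tissues. Slc30a3 loads zinc into synaptic vesicles, Slc30a8 loads it into insulin granules, and Slc39a4 takes up dietary zinc in the gut. Expression of these genes was not detectable above this background, which does not show that it was absent.

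The glomerular label was checked first. Of 10 podocyte marker genes 8 had a probe set, and all 8 exceeded background in every mouse. So did 10 of 10 endothelial and 6 of 6 mesangial and pericyte genes that the array reads. Markers of other cell types differed between the isolates, as the summed linear level of each list shows, dim genes included. Proximal tubule markers (14 of 16 above background) summed to 786 in mouse 1, 1369 in mouse 2 and 6576 in mouse 3. Distal nephron markers, from the loop to the collecting duct (7 of 13 above background), summed to 10531, 23158 and 15511 in mice 1, 2 and 3. Umod, Egf and Slc12a1 were the brightest and made up most of this sum. Of the 7, 6 were highest in mouse 2 and 6 lowest in mouse 1, while Calb1 was lowest in mouse 2 and highest in mouse 3. The collecting duct genes Aqp2, Aqp3 and Hsd11b2 were below background in at least 1 mouse, and Scnn1b and Fxyd4 throughout. Lymphocyte and granulocyte markers (4 of 11, with Cd3e, Cd3g, Cd4, Cd79a and Nkg7 below background) summed to 363 in mouse 1, 196 in mouse 2 and 107 in mouse 3. Podocyte markers were close together, at 65315, 65669 and 60990.

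The main pattern was that most metal transporter genes differed little between the 3 mice, and that Slc40a1, Mt2, Slc39a8, Slc11a1 and Mt1 had the widest ranges (2.52, 2.11, 2.08, 1.75 and 1.66-fold). Slc11a1 was lowest in mouse 3 and the other 4 in mouse 1. The median SD over the 26 genes was 0.152, against 0.157 for all 10610 genes above background. Highest and lowest mouse differed by at least 2-fold for 3 of the 26 genes (11.5%), namely Slc40a1, Mt2 and Slc39a8, where 5.94% of all genes did so. Without mouse 1 none of the 26 had such a range (3.01% of all genes did), without mouse 2 only Slc39a8 did (3.43%), and without mouse 3 Mt2 and Slc40a1 did (2.97%). Excess spread between mice was tested with limma, which sets the variance of each gene against the distribution fitted across all genes above background. After Benjamini-Hochberg adjustment 0 of 10610 genes (0.0%) passed the threshold of 0.05, so none of the 26 did, and the smallest adjusted p was 0.469 over all genes and 0.971 over the 26. At an unadjusted threshold of 0.05, 494 of all genes (4.66%) and 1 of the 26 passed, which was Slc40a1 (unadjusted p = 0.0494). With 3 arrays the test could call little, since Miox, a proximal tubule marker, had an adjusted p of 0.602 at a 20.0-fold range. That 0 genes passed therefore does not show that the mice were alike. The differences between mice given here are thus descriptions of 3 animals that did not pass the test.

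**Figure D1:**
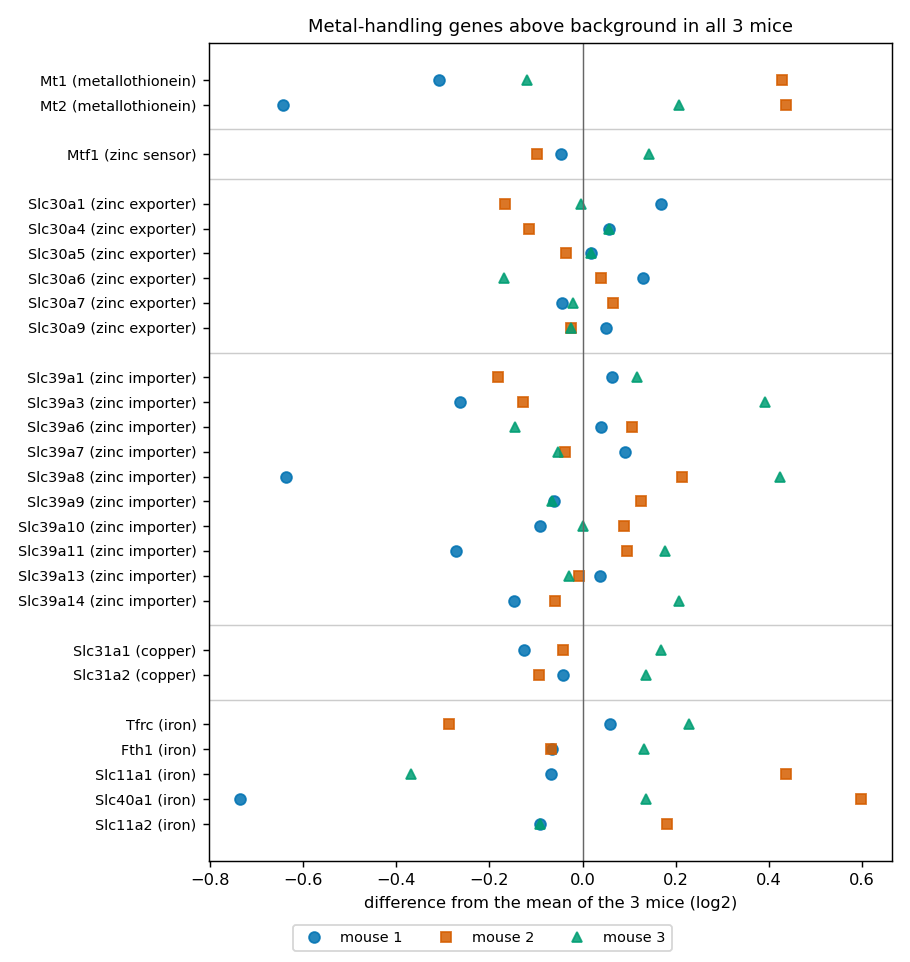
Difference of each mouse from the mean of the 3 mice (log2, x axis) for the 26 metal-handling genes above background in all mice, grouped by role; each symbol is 1 mouse. The zinc exporters lie close to 0, with ranges of at most 1.26-fold on the probe set that stands for each gene. Mt1, Mt2, Slc39a8 and Slc40a1 are spread out with mouse 1 lowest, and Slc11a1 with mouse 3 lowest.

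Mt1 and Mt2 were lowest in mouse 1 and highest in mouse 2, and Mt3 and Mt4 were at or below background in at least 1 mouse. Mt2 was at 6.58 in mouse 1, 7.66 in mouse 2 and 7.43 in mouse 3, a 2.11-fold range (SD 0.57, n = 3; adjusted p = 0.971). Mt1 was at 8.72, 9.45 and 8.91 in mice 1, 2 and 3, a 1.66-fold range (SD 0.38; adjusted p = 0.971). The genes thus shared both the lowest and the highest mouse, but mouse 3 lay near mouse 2 for Mt2 and near mouse 1 for Mt1. Both genes encode the widely expressed metallothioneins, which are induced by metals, glucocorticoids and oxidative stress. The probe set for Mt1 is of a type that can read related transcripts, so part of its signal may come from another metallothionein gene. The second Mt1 probe set was below background on every array (2.38, 2.64 and 2.38). Mt3, known best from brain, was at 2.81 in mouse 1 and 3.47 in mouse 2, above background in both, and at 2.51 in mouse 3, below it, so mouse 3 was lowest. Mt4, known from stratified epithelia, was below background in all mice (2.57, 2.04 and 1.88). Of the other 24 genes 3 (12.5%) were likewise lowest in mouse 1 and highest in mouse 2, near the 13.9% of all genes. The distal nephron markers had the same order (sums of 10531, 23158 and 15511, mostly from Umod, Egf and Slc12a1). Their part in the metallothionein values was not tested.

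**Figure D2:**
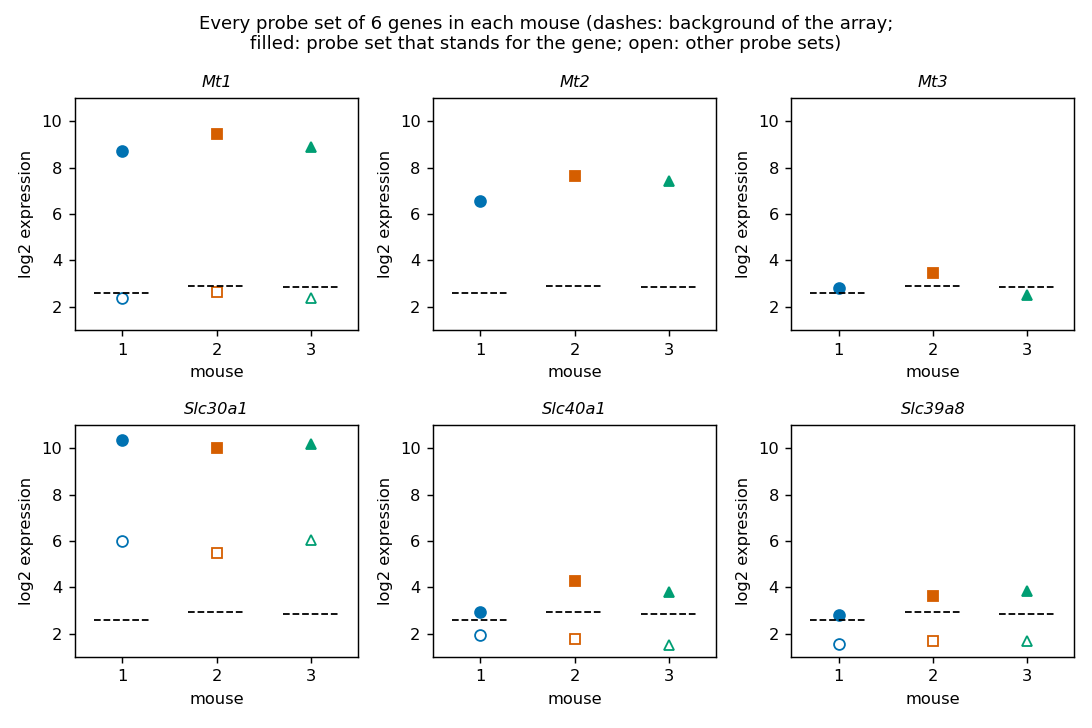
Log2 expression (y axis) of every probe set of Mt1, Mt2, Mt3, Slc30a1, Slc40a1 and Slc39a8 in mice 1, 2 and 3 (x axis), with the background of each array as dashes; filled symbols are the probe set that stands for the gene. The filled symbols of Mt1 and Mt2 lie far above background in every mouse. Those of Slc40a1 and Slc39a8 lie just above it in mouse 1 (2.94 and 2.79, against a background of 2.58). The open symbols of Mt1, Slc40a1 and Slc39a8 lie below background.

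On the probe set that stands for each gene, Mtf1 and the exporter gene its product is known to act on were not highest in mouse 2. Mtf1 was at 6.56, 6.51 and 6.75 in mice 1, 2 and 3, a 1.18-fold range (SD 0.13). Its other probe sets above background were at 6.10, 6.19 and 6.26 and at 4.45, 4.50 and 4.19 in mice 1, 2 and 3. They differed in which mouse was highest, so no order of the mice can be given for Mtf1. Slc30a1, the zinc exporter of the plasma membrane, was at 10.34 in mouse 1, 10.01 in mouse 2 and 10.17 in mouse 3, a 1.26-fold range (SD 0.17; adjusted p = 0.971). Its second probe set was at 6.01, 5.48 and 6.02. On both probe sets mouse 2, which had the highest Mt1 and Mt2, was the lowest. Slc30a1 was also lowest in mouse 2 when the arrays were quantile normalised or centred.

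The Slc30 genes, which carry zinc out of the cytosol, had the smallest median SD of the roles with several genes above background. All 3 mice exceeded background for 6 of 10 genes. On the probe set that stands for each gene, their SDs ran from 0.03 to 0.17 with a median of 0.08. None had a 2-fold range. None of the 6 was dim, with means from 7.52 to 10.79, and dim genes vary more on arrays. Slc30a5 was at 9.42, 9.36 and 9.42 and Slc30a6 at 7.65, 7.56 and 7.35 in mice 1, 2 and 3. Their products form a complex that supplies zinc to the early secretory pathway. Slc30a7, which acts in the same compartment, was at 8.72, 8.83 and 8.74. Its second probe set, at 5.08, 4.84 and 5.40, had a wider range and was highest in mouse 3. Slc30a4, a vesicular transporter whose loss gives zinc-poor milk in mice, was at 9.64, 9.47 and 9.64. The values of Slc30a4 and Slc30a5 in mice 1 and 3 were identical in the deposited table, a tie that lowers their SD. Slc30a9, a zinc transporter of mitochondria, was at 10.84, 10.76 and 10.76, a 1.05-fold range. The lowest value was that of mouse 2 in 4 of the 6 genes, where 34.5% of all genes were lowest. In 2 of them the margin below mouse 3 was small, at 0.0015 for Slc30a9 and 0.054 for Slc30a5 (log2). The array medians were offset by -0.039 in mouse 2 and 0.024 in mouse 3, so this count depends on whether arrays are centred. Slc30a2, which loads zinc into secretory vesicles, was above background in mouse 3 alone (2.54, 2.19 and 3.32).

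The Slc39 genes, which bring zinc into the cytosol, were above background for 10 of 14 members, with a median SD of 0.14 and 1 gene with a 2-fold range. Slc39a8, which encodes an importer of zinc and manganese, was at 2.79, 3.64 and 3.85 in mice 1, 2 and 3, a 2.08-fold range (SD 0.56; adjusted p = 0.971). In mouse 1 it lay just above the background of 2.58, and with the 99th percentile as background it was above it in 1 mouse only. Its other probe set was below background in all mice (1.56, 1.69 and 1.68). Proximal tubule markers followed the same order as Slc39a8 (sums of 786, 1369 and 6576), and their part in its values was not tested. Slc39a14, an importer of zinc, manganese and iron not bound to transferrin, was at 3.25, 3.34 and 3.61, and Slc39a3 was at 5.84, 5.97 and 6.49. On the probe set that stands for each, Slc39a14, Slc39a3 and Slc39a11 (3.58, 3.95 and 4.03) were likewise lowest in mouse 1 and highest in mouse 3. Slc39a14 too was dim. With the 99th percentile as background it was above it in 1 mouse only, and its other probe sets were below background in all mice. Over the 10 genes, 5 were lowest in mouse 1, where 32.0% of all genes were lowest.

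The other Slc39 genes had narrower ranges on the probe set that stands for each. Slc39a1, a widely expressed importer of the plasma membrane, was at 10.65, 10.40 and 10.70 in mice 1, 2 and 3 (SD 0.16), with mouse 2 lowest as for Slc30a1. Slc39a6 was at 9.25, 9.31 and 9.06, lowest in mouse 3. Its other probe sets above background, at 3.92, 4.51 and 4.54 and at 3.33, 3.85 and 3.58, had wider ranges and were lowest in mouse 1, so its order is uncertain. Slc39a10 was at 10.10, 10.28 and 10.19. The Slc39a6 and Slc39a10 products are closely related and can join in 1 complex. Slc39a7, which releases zinc from the endoplasmic reticulum, was at 9.65, 9.52 and 9.50, and Slc39a13, an importer of the secretory pathway, at 6.54, 6.49 and 6.47. Slc39a13 had the smallest range of the Slc39 genes above background, 1.05-fold. Slc39a9 was at 8.07, 8.25 and 8.06.

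Copper uptake genes were above background. Their median SD was 0.136 on the probe set that stands for each, not far from the 0.157 of all genes. Slc31a1, which encodes the high-affinity copper importer, was at 7.18, 7.26 and 7.47 in mice 1, 2 and 3, a 1.23-fold range (SD 0.15; adjusted p = 0.975). Its second probe set had the same order of the mice over a wider range (3.79, 4.12 and 4.50). Slc31a2, its intracellular relative, was at 8.90, 8.84 and 9.07, and its second probe set, at 4.67, 4.64 and 4.51, was lowest in the mouse where the first was highest. Of 17 further genes of copper handling, among them copper pumps, chaperones and oxidases, 14 exceeded background in every mouse. Among these 0 passed the test and 0 reached a 2-fold range, where 5.94% of all genes did. Atp7a, the copper pump that serves the secretory pathway, was at 9.43, 9.31 and 9.62, and its relative Atp7b, whose loss causes Wilson disease, was below background in all mice. Atox1, the chaperone that hands copper to these pumps, was at 10.55, 10.40 and 10.16. The median SD of these genes was 0.161, against 0.157 for all genes.

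Iron genes held the widest range of all 26. Slc40a1, which encodes ferroportin, was at 2.94, 4.27 and 3.81 in mice 1, 2 and 3, a 2.52-fold range (SD 0.68; adjusted p = 0.971). Mouse 1 lay near the background of its array, and the second Slc40a1 probe set was below background in all mice (1.93, 1.77 and 1.53). Macrophages that recycle iron are a known source of ferroportin, as is the proximal tubule. The distal nephron markers had the order of Slc40a1 (sums of 10531, 23158 and 15511, mostly from Umod, Egf and Slc12a1). Proximal tubule markers were also lowest in mouse 1 (786, 1369 and 6576). Macrophage and antigen presentation markers summed to 2950, 2535 and 2320 in mice 1, 2 and 3. Mrc1, at 10.70, 10.82 and 10.74, made up most of this sum, which hides wider differences in both directions. Lyz2 was at 9.47, 8.22 and 7.02, while H2-Ab1 was at 4.44, 3.33 and 5.87. Of that list 8 of 15 exceeded background, with Cd68, C1qa and Itgam below it in all mice, and of these 8 the highest mouse was mouse 1 for 4, mouse 2 for 2 and mouse 3 for 2. Slc11a1, an exporter of iron and manganese from the phagosome of macrophages, was at 3.85, 4.36 and 3.55, a 1.75-fold range (SD 0.41), with mouse 2 highest. The part of these cell types in the values of Slc40a1 and Slc11a1 was not tested.

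Genes for the uptake and storage of iron were closer together. Tfrc, the transferrin receptor gene, was at 4.74, 4.40 and 4.91 in mice 1, 2 and 3, a 1.43-fold range (SD 0.26). This value comes from 1 of 6 probe sets, and the other 5, of which 3 are control probe sets on the array, were below background in all mice. Red cell precursors are rich in this receptor. Erythroid markers exceeded background in every mouse for 2 of 7 genes on the array, Alas2 (3.67, 3.40 and 3.25 in mice 1, 2 and 3) and Slc4a1, and Hba-a1, Epb42 and Klf1 were below it throughout. The sum over the 7 genes, most of them dim, was 54.3, 44.4 and 46.7, and its part in the values of Tfrc was not tested. Slc11a2, which moves iron across the endosome membrane, was at 3.75, 4.02 and 3.75, with identical values in mice 1 and 3. Its second probe set above background, at 3.61, 3.77 and 3.51, was also highest in mouse 2. Fth1, the ferritin subunit that oxidises iron for storage, was at 13.35, 13.35 and 13.55, a 1.15-fold range (SD 0.12). Its second probe set was highest in mouse 1 (12.25, 12.07 and 11.95), so the order of the mice is uncertain for Fth1, and differences may be compressed this close to the highest value of the arrays (14.76).

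The wider iron pathway was set against the 5.94% of all genes with a 2-fold range, and in lists this short a count of 0 is near that background. Of 19 further genes for uptake, export control and sensing 18 had a probe set, 10 exceeded background in every mouse, with a median SD of 0.0899 and 0 of 2-fold range. Hfe, which encodes a partner of the transferrin receptor mutated in haemochromatosis, was at 7.84, 7.81 and 8.42. Tfr2 was above background in mouse 1 alone (2.94, 2.54 and 2.74). Hamp, which encodes the liver hormone hepcidin, and Hjv, its regulator, were below background in all mice. Of 21 genes of haem and mitochondrial iron 19 had a probe set and 18 were above background, with 0 of 2-fold range and a median SD of 0.149. Hmox1, the inducible haem oxygenase gene, was at 3.39, 3.36 and 3.55 and its constitutive relative Hmox2 at 9.47, 9.41 and 9.42. Blvra, a biliverdin reductase gene, was at 8.77, 8.27 and 8.33. Of 12 zinc-handling and stress-response genes related to Mtf1, 10 exceeded background, 0 reached a 2-fold range and 1 was highest in mouse 2, where 28.2% of all genes were highest. Among them Trpm7, a channel that passes zinc and magnesium, was at 10.70, 10.66 and 10.81, and Mcoln1, a lysosomal channel, at 7.85, 7.77 and 7.97, while Tmem163 was below background.

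**Figure D3:**
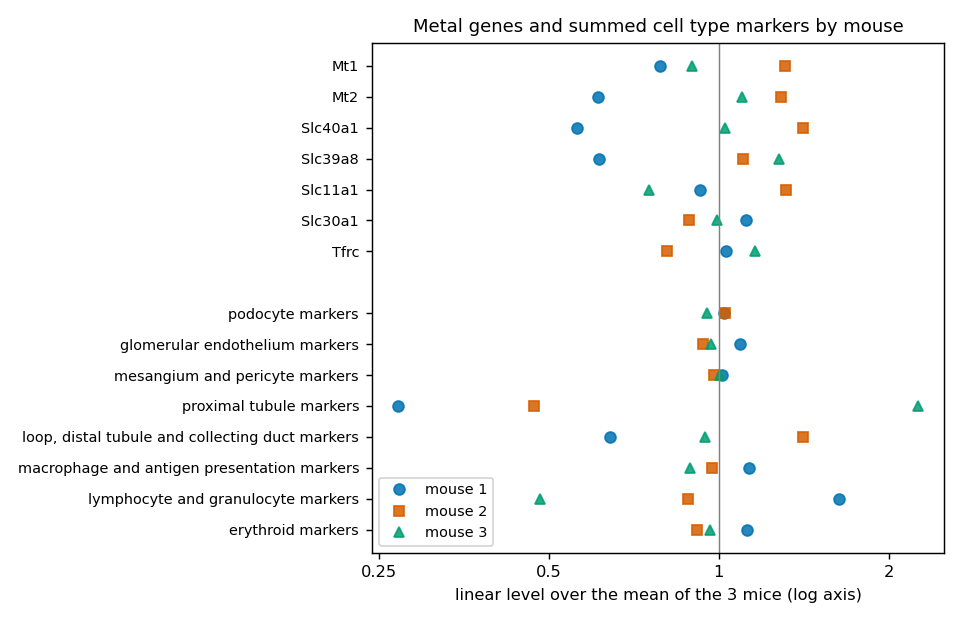
Linear level of 7 metal genes and summed linear level of 8 cell type marker lists in each mouse, divided by the mean of the 3 mice (x axis, log scale); each symbol is 1 mouse. Proximal tubule markers are spread most widely, with sums of 786 in mouse 1 and 6576 in mouse 3, whereas podocyte markers, between 60990 and 65669, lie near 1.

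The spread of the metal genes was set against their level, since dim genes vary more on arrays. Among genes in the lowest tercile of mean level, 8 were members and had a median SD of 0.304, against 0.226 for all genes there. The 8 members in the middle tercile had a median SD of 0.123, against 0.160 for all genes, and the 10 in the highest tercile 0.107, against 0.114. Slc40a1, Slc39a8 and Slc11a1 are among the dim members, and Mt2 and Mt1 are brighter genes. The limma test fits the SD to the level, and its unadjusted p was 0.0494 for Slc40a1, 0.0756 for Slc39a8 and 0.177 for Slc11a1. It was 0.0532 for Mt2 and 0.0635 for Mt1. Slc40a1 thus lay at least as far above the spread fitted for its level as Mt2 and Mt1 did, and none of these genes passed after adjustment. Where a gene had more than 1 probe set above background (9 genes), the probe sets named the same highest mouse for 2 genes (Slc11a2 and Slc31a1) and the same lowest mouse for 3 (Slc30a1, Slc31a1 and Slc39a3). For most of these genes the order of the mice thus depends on the probe set that is read. Over the 26 genes mouse 1 was highest for 5 (34.0% of all genes were highest there) and lowest for 10 (32.0% of all genes), mouse 2 was highest for 9 (28.2%) and lowest for 9 (34.5%), and mouse 3 was highest for 10 (36.3%) and lowest for 6 (31.7%), with ties left out.

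**Figure D4:**
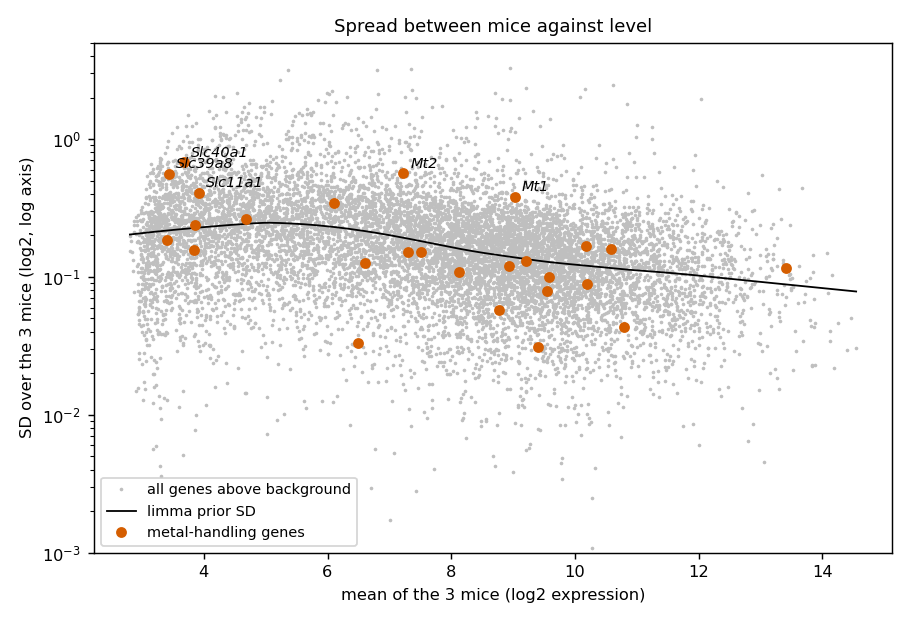
SD over the 3 mice (y axis, log scale) against mean log2 expression (x axis) for all 10610 genes above background in grey and the 26 metal genes in orange, with the SD that limma fits for each level as a line; 18 genes with an SD under 0.001 are off the plot. Mt1, Mt2 and the dimmer Slc40a1 (SD 0.38, 0.57 and 0.68) lie above the line, and most other metal genes lie within the grey cloud around it.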

How the data were processed

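The authors deposited 1 table of log2 values, made with GCRMA per the submitters' processing notes (version, and which arrays were normalised together, not given in the sources used here). That the scale is log2 was taken from the range, 0.67 to 14.76. GCRMA leaves identical values on pairs of arrays (2.18% to 2.49% of probe sets), which lowers some SDs. There were 0 unused columns of per-sample values.

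Gene names came from the platform annotation, and probe sets of several genes were left out. No further normalisation was applied. Excess variance was tested with limma 3.58.1 in R 4.3.3 (trend on mean level, robust fit, one-sided, Benjamini-Hochberg over all genes above background). The code was tested on simulated data with strongly inflated SDs, which does not show that the test can detect spreads as small as those here. Each array is 1 mouse. Signal over background and 3 arrays limit the precision.

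Named genes were every member past the test or with a 2-fold range, a set of best-known members for each role, and the first genes with a probe set in each pathway list. Values of further members are given by role. The members and lists were chosen with earlier results of these data known. Alternatives varied the background, the probe set, the normalisation, the limma prior and the mice.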

Additional observations from a re-analysis of the deposited data

How the results depend on the processing

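The number of members above background was 26, and it was 23 with the 99th percentile of the receptor probe sets as background and 20 with a fixed log2 value of 4. The number of members with a 2-fold range was 3, and 1 with the 99th percentile background or with a gene's probe sets averaged, which left Mt2 in both cases and for which fewer genes were tested. It ran from 0 to 2 when each mouse was left out in turn. With no filter on dim genes it was 4, with Slc30a2 added. The median SD of the members ran from 0.120 to 0.158 over all alternatives. No gene of the whole table, and so no member, passed the adjusted threshold of limma under any alternative that was run, among them a prior without trend, with 301 to 890 genes or probe sets at an unadjusted threshold of 0.05. Mt1, Mt2 and Slc40a1 were highest in mouse 2 and lowest in mouse 1 under each normalisation. For Fth1, Mtf1, Slc11a2 and Slc31a2 the order of the mice changed in at least 1 setting. No paired analysis was possible because the labels give 1 group. Of the genes below background only an upper bound is known.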
